A study of Mus musculus with 11 samples.

Results

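The 10 genes described here encode endocytic receptors found in the macrophages of the perivascular space, some of them in other cells as well: the CD209 lectins Cd209a, Cd209b, Cd209d, Cd209f and Cd209g, and the scavenger receptors Mrc1, Cd163, Lyve1, Stab1 and Colec12. They were chosen from 26921 genes in the files as genes known to be high in perivascular macrophages (PVMs), with results of these cells in view, so their level in PVMs beside other cells is given as a description. The values come from 1897 PVMs among 50625 cells of C57BL/6 mouse cortex, dissociated, depleted of myelin and captured by droplet single-cell RNA sequencing of transcript 3′ ends. Each captured transcript was counted once, by its molecular barcode (UMI). The groups were Juvenile (4 libraries, 10 days of age), Adult (3 libraries, 7 to 11 weeks), Aged (2 libraries, 18 months) and EAE (2 libraries). EAE, experimental autoimmune encephalomyelitis, is a mouse model of multiple sclerosis. It was induced in 7 to 11 week old females with a myelin oligodendrocyte glycoprotein peptide in Complete Freund's Adjuvant and with pertussis toxin, and the cortex was taken at the peak of disease. The Juvenile, Adult and Aged mice had no immunization, and the study used females unless stated otherwise. Tissue was pooled from 6 mice for Juvenile and Adult samples and from 3 for Aged and EAE samples, so no value belongs to a single animal. Whether the libraries of a group came from separate pools is not given.

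PVMs lie between the vessel wall and the glial limit of the brain, where they take up macromolecules and debris from the fluid around vessels. C-type lectins such as the CD209 family and the mannose receptor bind sugar chains of microbes and of host glycoproteins, and scavenger receptors bind modified lipoproteins, haemoglobin complexes, hyaluronan or cell remnants. Binding is followed by endocytosis, and in some cells by presentation of the cargo on MHC class II.

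Library totals ranged from 15755504 to 34326349 UMIs, and each library gave 135 to 215 PVMs. PVMs were named from 12 other markers, such as Pf4 and F13a1, and the 10 receptor genes took no part in the clustering or the naming. All 12 markers were found in the PVMs of every library, with a summed level of 18308 to 19449 CPM (counts of a gene per 1000000 of the UMIs summed over the PVMs of a library) in Juvenile, 11817 to 13118 in Adult, 12730 to 13199 in Aged and 9234 to 9306 in EAE. The PVM counts of some libraries of a group were almost the same. The PVM counts of Adult 2 and Adult 3 differed by 0.998 times what random divisions of their joined cells gave, and those of Juvenile 1 and 2 and of Juvenile 3 and 4 by 1.03 and 1.15 times. Each of these pairs was summed to 1 unit, which left 2 units a group. The Aged libraries (0.704 times) and the EAE libraries (1.09 times) differed as little, but were kept apart, so that p-values measure a spread that may be technical. With each of those pairs counted as 1 unit as well, a choice made after seeing the data, calls over all genes fell from 503 to 211 in Juvenile, from 128 to 15 in Aged and from 1512 to 642 in EAE. Libraries were not shared between conditions, so condition and library preparation cannot be told apart.

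PVMs came from 3 clusters. The main cluster held 98.7% of the PVMs in Juvenile, 63.8% in Adult and 95.5% in Aged, whereas 94.8% of EAE PVMs fell into a cluster led by Ccl8 and Gpx3. The third cluster, with RNA of choroid plexus epithelium, held 177 of the 183 PVMs of Adult 1. Markers of other cells moved with the groups. Over 8 endothelial markers the summed level in PVMs was 1128 to 1449 CPM in Adult, 252 to 287 in Juvenile, 881 to 1199 in Aged and 442 to 458 in EAE, with at most 1 marker at 0 in a library. Over 9 markers of infiltrating macrophages it was 60.9 to 117 CPM in Adult (1 to 4 at 0), 19.9 to 55.5 in Juvenile (3 to 7 at 0), 71.9 to 82.5 in Aged (1 or 2 at 0) and 302 to 324 in EAE (0 at 0). Over 8 neutrophil markers Aged PVMs held 287 to 317 CPM (1 to 3 at 0), Adult PVMs 28.8 to 61.8 (3 or 4 at 0), EAE PVMs 184 to 218 (1 or 2 at 0) and Juvenile PVMs 0 to 18.5 (5 to 8 at 0). Over 10 microglial markers PVMs held 3212 to 3496 CPM in Adult, 927 to 964 in EAE, 3460 to 3772 in Aged and 2434 to 3492 in Juvenile, with at most 1 marker at 0. Over 6 choroid plexus markers PVMs held 22816 to 56294 CPM in Adult, 6709 to 21929 in Juvenile, 5974 to 14973 in Aged and 6130 to 6368 in EAE. The part of these RNAs in the results below was not tested beyond the alternatives named there.

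The 5 Cd209 members lie together on chromosome 8. In GRCm38 with the GENCODE annotation the block runs from Cd209a at chr8:3743397-3748984 on the minus strand to Cd209g at chr8:4134098-4137707 on the plus strand, a span of 394 kb with 7 protein-coding genes, all of the Cd209 family. Cd209d (chr8:3871824-3878555), Cd209b (chr8:3917655-3926844) and Cd209f (chr8:4102787-4105835) are on the minus strand. Because the level of each of these 5 genes was highest in Aged PVMs, the bases before their start sites are shown, 5′ to 3′ on the gene's strand, from RefSeq (GRCm38.p6). Bases that overlap an exon of a coding transcript are left out. The Cd209g bases lie inside the annotated span of the gene, before a coding transcript start at 4134652. An entry was found for 8 of the 10 members. Capitals in the first 3 mark the strings TTCCGG (the core of an ETS-type motif) and GCTGTGTCA. Capitals in the last 2 mark the stretch that Cd209f and Cd209g share without a mismatch.
Cd209a, chr8:3748985-3749234, minus strand: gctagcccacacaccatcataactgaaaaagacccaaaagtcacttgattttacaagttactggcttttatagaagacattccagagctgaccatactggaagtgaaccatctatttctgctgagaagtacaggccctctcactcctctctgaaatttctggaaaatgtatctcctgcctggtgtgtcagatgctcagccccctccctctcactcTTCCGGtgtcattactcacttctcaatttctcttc
Cd209b, chr8:3926842-3927091, minus strand: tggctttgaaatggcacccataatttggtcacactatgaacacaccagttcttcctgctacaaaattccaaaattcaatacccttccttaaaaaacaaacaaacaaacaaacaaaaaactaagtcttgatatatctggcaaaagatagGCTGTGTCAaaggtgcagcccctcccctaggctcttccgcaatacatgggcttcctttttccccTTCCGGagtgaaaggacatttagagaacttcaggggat
Cd209d, chr8:3878556-3878749, minus strand: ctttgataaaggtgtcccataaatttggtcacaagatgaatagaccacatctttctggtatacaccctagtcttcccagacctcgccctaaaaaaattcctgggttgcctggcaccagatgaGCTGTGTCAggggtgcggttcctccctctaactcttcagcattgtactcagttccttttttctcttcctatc
Cd209f, chr8:4105836-4106014, minus strand: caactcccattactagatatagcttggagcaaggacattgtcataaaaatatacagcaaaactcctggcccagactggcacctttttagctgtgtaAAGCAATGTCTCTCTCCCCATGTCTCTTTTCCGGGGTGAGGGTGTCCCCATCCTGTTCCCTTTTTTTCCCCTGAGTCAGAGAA
Cd209g, chr8:4134486-4134651, plus strand: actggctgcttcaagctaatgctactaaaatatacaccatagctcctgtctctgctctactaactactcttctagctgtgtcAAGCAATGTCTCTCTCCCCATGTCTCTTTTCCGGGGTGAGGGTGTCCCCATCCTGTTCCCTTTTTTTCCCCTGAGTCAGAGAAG

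Windows were the 300 bases from 250 before to 50 after the start, and shared runs were sought in the 250 bases before it. There Cd209f and Cd209g shared 1 identical run of 154 bases, and 80.1% of their 236 aligned bases were the same. The run reached the end of the Cd209f bases compared, so it may be longer. In Cd209f 71 of the 250 bases overlap an exon, so only 83 bases of the run are printed. No other pair of the Cd209 members shared a run longer than 12 bases. TTCCGG, read on both strands, was in the windows of Cd209a, Cd209b, Cd209f and Cd209g and in 12.2% of 27025 promoter windows of the same length. GCTGTGTCA was in those of Cd209b, Cd209d and Cd209g and in 0.377% of all windows, and it was searched because the windows had been seen to share it. A PU.1-type motif (GAGGAAGT, in 2.44% of all windows) and a MAF-type string (TGCTGAC, in 3.72%) were in 0 of the 5. TTCCGG and GAGGAAGT overlap, since both hold GGAA on one strand, and a match is only a description of the letters. The transcripts of Cd209f and Cd209g also shared 98-base windows, 29.3% of those of Cd209f and 29.8% of those of Cd209g, but 0 of the 403 windows in the last 500 bases of either, the end that a 3′ assay reads.

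Of all UMIs of each gene in the series, PVMs, which were 1897 of the 50625 cells, held 87.7% for Cd209f, 87.3% for Lyve1, 86.9% for Cd209g, 84.5% for Cd209b, 83.7% for Cd163, 74.3% for Mrc1, 71.0% for Cd209d, 55.4% for Cd209a, 43.1% for Stab1 and 23.2% for Colec12. The other UMIs of the last 3 lay in different cells. Cd209a was high in a small cluster led by Ccl17, which carried markers both of infiltrating macrophages and of dendritic cells and was left unnamed. Stab1 was also found in endothelial cells (3930 UMIs, 33.6 to 79.1 CPM per library) and microglia (3633 UMIs, 124 to 157 CPM), beside 715 to 1412 CPM in PVMs. Colec12 was also found in mural cells (832 UMIs, 74.2 to 421 CPM), choroid plexus cells (747 UMIs, 2.09 to 23.1 CPM) and fibroblast-like cells (673 UMIs, 53.4 to 276 CPM), beside 84.0 to 215 CPM in PVMs.

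**Figure D1:**
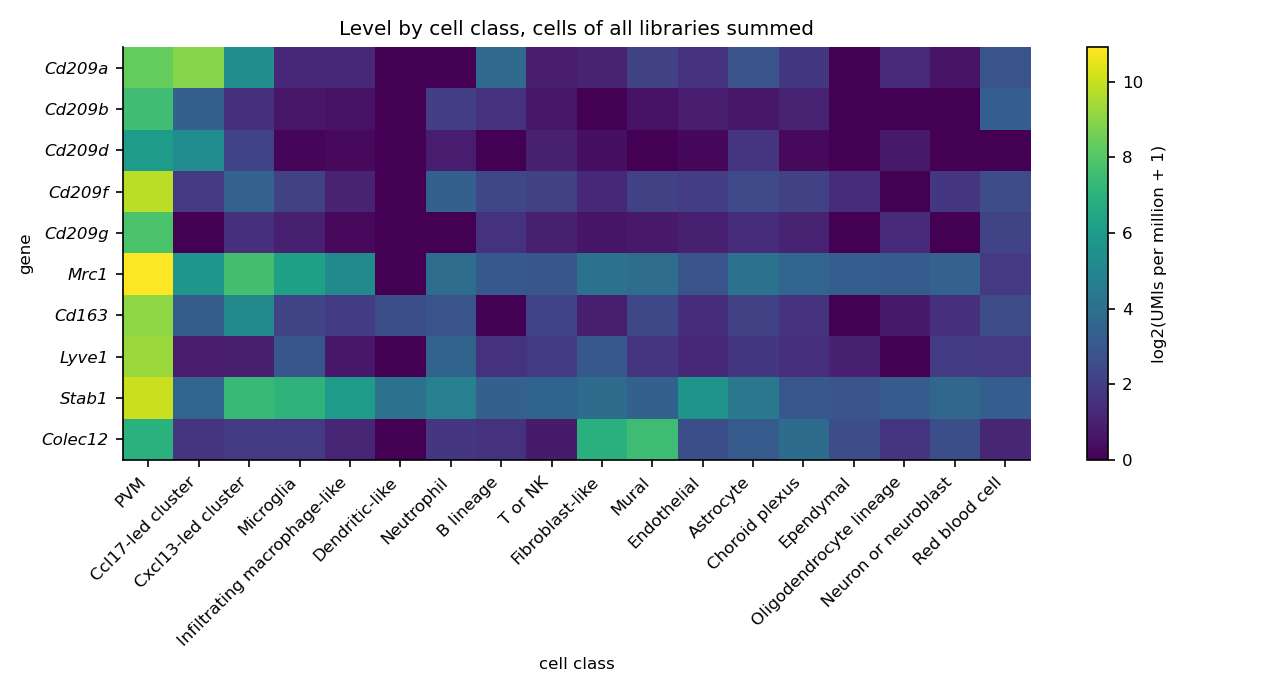
Colour map of the level of each of the 10 genes (rows) in 18 cell classes (columns), as log2 of CPM + 1 with the cells of all libraries summed. PVMs have the highest level of 8 genes, while Cd209a is highest in the Ccl17-led cluster and Colec12 in mural cells.

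All 10 genes passed the filter on low counts, but Cd209d passed through Aged and EAE alone, the groups where it is high, so it is described by its levels and left out of these counts. Compared with Adult PVMs, 5 of the other 9 genes were called changed in Aged PVMs, 5 in EAE PVMs and 4 in Juvenile PVMs, by edgeR's quasi-likelihood test with Benjamini-Hochberg adjustment over the 8470 genes tested, at 0.05. In Aged 4 genes rose, all of them Cd209 genes, where 0.732% of all genes tested were called higher, and 1 fell (Mrc1), where 0.779% were called lower. In EAE 2 rose (Cd163, Lyve1), where 10.2% of all genes were called higher, and 3 fell (Cd209a, Mrc1, Stab1), where 7.69% were called lower. In Juvenile 2 were higher than in Adult (Lyve1, Mrc1), where 2.1% of all genes were called higher, and 2 were lower (Cd209a, Cd209b), where 3.84% were. The median log2 change of these 9 genes, without Cd209d, was 0.53 in Aged, -0.33 in EAE and 0.03 in Juvenile, beside -0.02, -0.03 and -0.01 over all genes tested. The 3 comparisons share the Adult libraries. These genes were proposed with earlier results of the same libraries known, so the counts are no independent evidence of a direction.

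**Figure D2:**
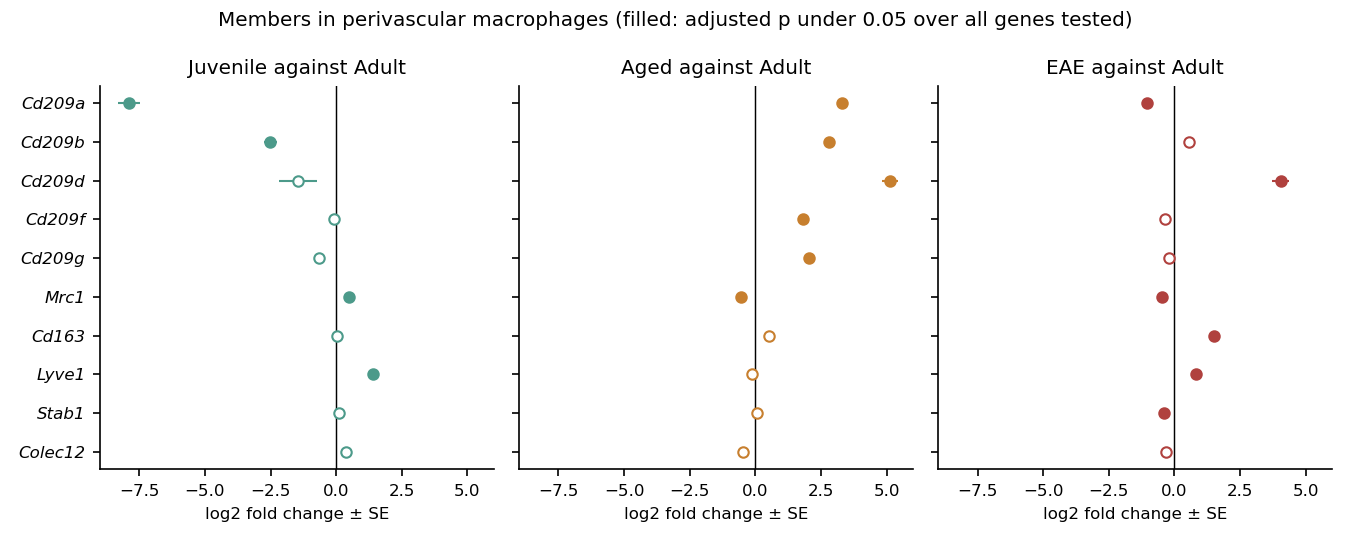
Log2 fold change of each of the 10 genes in PVMs, with 1 panel each for Juvenile, Aged and EAE against Adult, bars of 1 standard error from the edgeR fit and filled points for an adjusted p under 0.05. Cd209d passed the filter on low counts through Aged and EAE alone, so its points are a description. The 5 Cd209 genes lie between 1.80 and 5.13 in Aged, while the other 5 receptors lie between -0.56 and 0.53.

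Cd209a, the mouse gene called DC-SIGN and known from dendritic cells, was near absent from PVMs at 10 days of age and highest at 18 months. Its level was 181, 141 and 132 CPM in Adult 1 to 3, 1653 and 1367 CPM in Aged 1 and 2, 65.1 and 70.9 CPM in EAE 1 and 2, and 0, 0, 0 and 2.62 CPM in Juvenile 1 to 4. None of these ranges overlapped: Aged libraries lay above Adult, Adult above EAE, and EAE above Juvenile. Aged PVMs held 9.77-fold more than Adult (log2 3.29, SE 0.19, edgeR adjusted p = 7.4e-09). EAE PVMs held less than Adult (log2 -1.05, SE 0.20, edgeR adjusted p = 0.0011). The call in EAE was lost when the EAE libraries were summed (edgeR adjusted p = 0.056) and in the main cluster alone (edgeR adjusted p = 0.46), which held 10 or 11 PVMs per EAE library. Only 1 UMI was found in 553 Juvenile PVMs, so the summed Adult level was 278 times the Juvenile level, with an exact 95% counting interval of 49.6 to 11032, and the Aged level 2704 times (485 to 106846). The fit put the Juvenile level below Adult by log2 -7.91 (edgeR adjusted p = 9.1e-10), a size that depends on the count added to 0.

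Cd209b, called SIGN-R1 and known from macrophages of the splenic marginal zone, followed the same order of Juvenile, Adult and Aged. Its level was 74.8, 73.8 and 173 CPM in Adult, 697 and 663 CPM in Aged, 141 and 123 CPM in EAE, and 28.7, 7.57, 6.94 and 36.7 CPM in Juvenile. Aged libraries were all above Adult and Juvenile libraries all below, while the EAE libraries lay between Adult 1 and Adult 3. The rise in Aged was 6.93-fold (log2 2.79, SE 0.19, edgeR adjusted p = 3.4e-08) and the Juvenile level was lower by log2 -2.51 (SE 0.25, edgeR adjusted p = 6.4e-06). Both calls were lost among PVMs with under 3 UMIs of endothelial markers, at log2 3.40 (edgeR adjusted p = 0.060) and -1.66 (edgeR adjusted p = 0.40), where 31 to 37 PVMs were left per Adult library. In EAE the difference was 0.56 (edgeR adjusted p = 0.052), which rose to 0.99 without Adult 3 (edgeR adjusted p = 0.00044) and turned to -0.53 in the main cluster alone (the cluster of few EAE PVMs).

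Cd209d, called SIGN-R3, was almost unseen in Adult PVMs and present both in Aged and in EAE. The Adult libraries gave 7, 4 and 1 UMIs, or 8.05, 6.86 and 1.69 CPM, and the Juvenile libraries 0, 2, 1 and 1 UMIs. Aged libraries had 164 and 249 CPM and EAE libraries 97.6 and 79.3 CPM, far above every Adult and Juvenile library. From summed UMIs the Aged level was 35.4 times the Adult level (exact 95% counting interval 19.9 to 69.5) and the EAE level 15.1 times (8.40 to 29.7). The fitted log2 differences were 5.13 (SE 0.32) and 4.04 (SE 0.34), given without a test because of the filter. A difference between Juvenile and Adult was not detectable at these counts.

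Cd209f and Cd209g, the pair with matching start regions, are neighbours among the protein-coding genes of the block. Cd209f had 587, 820 and 627 CPM in Adult, 2422 and 2037 in Aged, 544 and 366 in EAE, and 692, 660, 750 and 584 in Juvenile. Aged libraries lay apart from all others, EAE libraries lay below the Adult libraries in CPM but not once normalized by TMM, and the Juvenile values overlapped the Adult values. The rise in Aged was 3.48-fold (log2 1.80, SE 0.18, edgeR adjusted p = 1.5e-05). Cd209g had 177, 163 and 145 CPM in Adult, 722 and 621 in Aged, 154 and 100 in EAE, and 144, 110, 94.9 and 110 in Juvenile. Again the Aged libraries stood apart, and all Juvenile libraries lay below the Adult ones by a small margin. The rise of Cd209g in Aged was 4.15-fold (log2 2.05, SE 0.19, edgeR adjusted p = 5.3e-06), and its Juvenile difference of -0.66 missed the threshold (edgeR adjusted p = 0.056) but passed it with all 11 libraries entered separately (edgeR adjusted p = 0.014). In EAE the differences were -0.36 for Cd209f (edgeR adjusted p = 0.19) and -0.21 for Cd209g (edgeR adjusted p = 0.52). Among PVMs with under 3 UMIs of endothelial markers both passed, at -0.84 (edgeR adjusted p = 0.014) and -1.06 (edgeR adjusted p = 0.030), an alternative added after seeing the data.

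The Aged rises of Cd209a, Cd209f and Cd209g were called under every alternative run, the one with each Aged and EAE pair as a single unit included, where their edgeR adjusted p-values ran from 3.1e-05 to 0.0047. Of the other 2 protein-coding genes of the block, Cd209e gave 46 UMIs in all PVMs and Cd209c 11. Cd209e had 0, 1 and 1 UMIs in Adult 1 to 3, 6 and 8 in Aged 1 and 2, 13 and 17 in EAE 1 and 2 and 0 in each Juvenile library. It could pass the filter on low counts through Aged and EAE alone, so these counts are given as a description. Cd209c was too low to test. Over the 10 markers of dendritic cells, among which Cd209a is also known, the summed level in PVMs was 77 to 89.0 CPM in Aged (4 at 0) and 91.3 to 162 CPM in Adult (2 to 5 at 0). The genes that led the Ccl17-led cluster, summed, reached 39.4 to 40.5 CPM in Aged PVMs and 12 to 38.0 CPM in Adult PVMs, beside 2067 CPM in the cluster itself. For PVMs summed over cells, a larger share of cells with a gene and more RNA per cell cannot be told apart, so single cells are described further on.

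**Figure D3:**
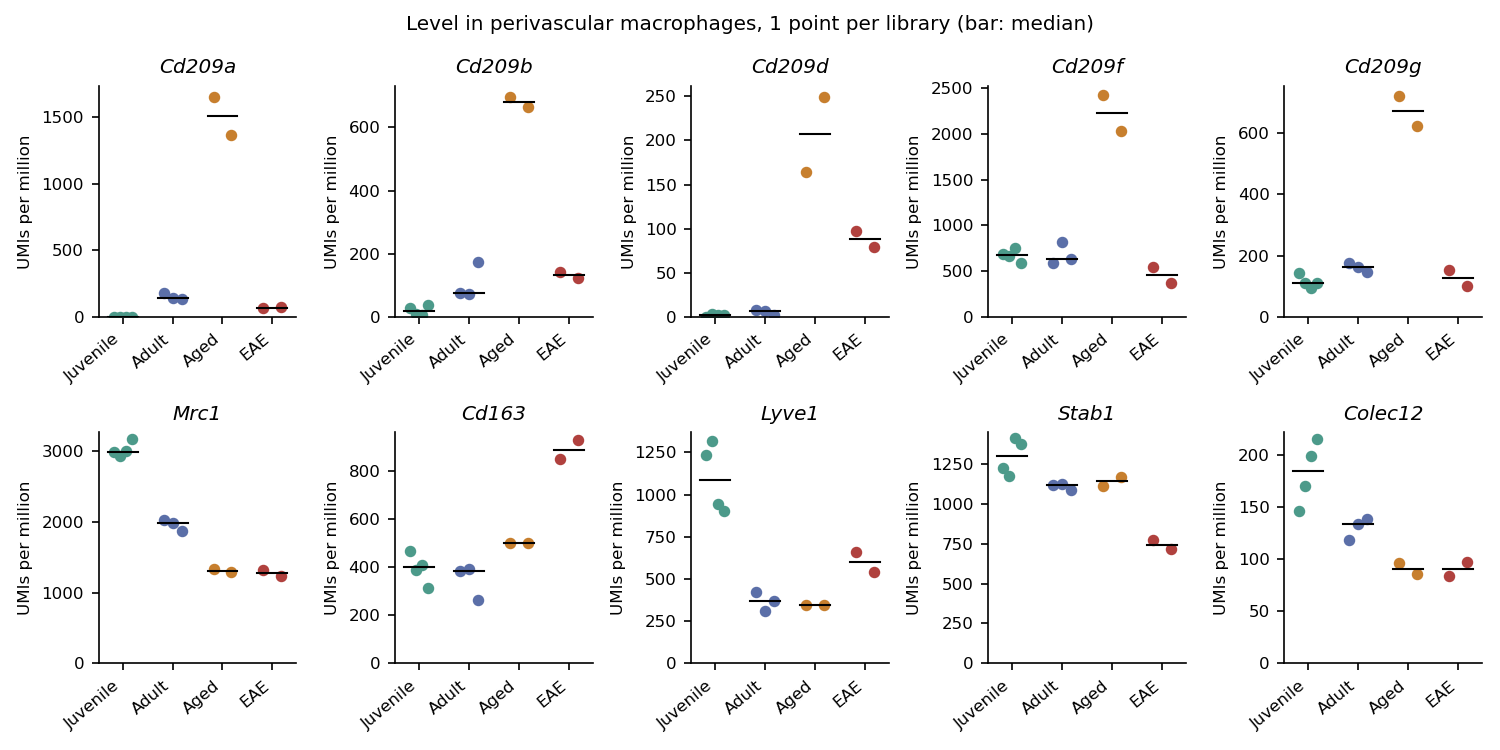
Level of each gene in PVMs (CPM, linear axes that start at 0), with 1 point per library, the groups Juvenile, Adult, Aged and EAE side by side and a bar at the group median. For the 5 Cd209 genes both Aged libraries lie above all Adult libraries, and for Cd209d both EAE libraries do as well.

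In Aged the log2 differences of the other 5 receptors from Adult ran from -0.56 to 0.53, beside 1.80 to 5.13 for the Cd209 genes. In EAE those of Cd163 (1.49) and Lyve1 (0.83) were larger in size than those of Cd209b (0.56), Cd209f (-0.36) and Cd209g (-0.21), and in Juvenile that of Lyve1 (1.41) was larger than those of Cd209f (-0.08) and Cd209g (-0.66). Mrc1, the mannose receptor CD206 that clears glycoproteins, was highest in Juvenile PVMs: 2991, 2929, 2997 and 3168 CPM, beside 2029, 1981 and 1867 in Adult, 1338 and 1286 in Aged and 1317 and 1242 in EAE. The Juvenile libraries lay above all Adult libraries, and the Aged and EAE libraries below. The log2 differences from Adult were 0.49 in Juvenile (SE 0.13, edgeR adjusted p = 0.034), -0.56 in Aged (SE 0.13, edgeR adjusted p = 0.041) and -0.46 in EAE (SE 0.13, edgeR adjusted p = 0.022). None of the 3 calls held when each Aged and EAE pair was 1 unit (edgeR adjusted p = 0.25, 0.70 and 0.37) or with DESeq2 (adjusted p = 0.14, 0.053 and 0.084).

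Lyve1, a receptor for hyaluronan shared with lymphatic vessels, was also highest in Juvenile PVMs, at 1236, 1317, 942 and 901 CPM. Adult libraries had 422, 310 and 367 CPM, Aged 347 and 343, and EAE 659 and 542. The Juvenile libraries did not overlap the Adult ones, the EAE libraries lay between both, and the Aged libraries lay among the Adult ones. The Juvenile level was 2.66-fold that of Adult (log2 1.41, SE 0.18, edgeR adjusted p = 7.9e-05), a call held under every alternative. The rise in EAE, 0.83 (SE 0.18, edgeR adjusted p = 0.0026), was lost with each EAE pair as 1 unit (edgeR adjusted p = 0.084), without EAE 1 (0.71, edgeR adjusted p = 0.071) and in the main cluster alone (0.66, edgeR adjusted p = 0.34).

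Cd163, the receptor that takes up haptoglobin-haemoglobin complexes, rose in EAE. Its level was 849 and 927 CPM in EAE, 383, 391 and 264 in Adult, 501 and 500 in Aged, and 466, 388, 410 and 312 in Juvenile. Both EAE libraries lay above every other library, the Aged libraries lay above the Adult ones, and the Juvenile values overlapped them. The rise in EAE was 2.81-fold (log2 1.49, SE 0.15, edgeR adjusted p = 1.0e-06) and was called under every alternative, also in the main cluster alone. The Aged difference of 0.53 missed the threshold (edgeR adjusted p = 0.11) and passed it without Adult 1 (0.66, edgeR adjusted p = 0.035). Summed markers of red blood cells, from which haemoglobin comes, were 72.0 to 104 CPM in EAE PVMs, 276 to 14462 in Adult, 139 to 13133 in Juvenile and 9068 to 9554 in Aged, and their part in the Cd163 level was not tested.

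Stab1, stabilin-1, clears apoptotic cells and modified proteins, and Colec12 is a collectin with a scavenger domain. Stab1 had 1115, 1122 and 1087 CPM in Adult, 1114 and 1170 in Aged, 771 and 715 in EAE, and 1222, 1173, 1412 and 1374 in Juvenile. The EAE libraries lay below all others, and the difference of -0.41 (SE 0.14, edgeR adjusted p = 0.049) was lost under 17 of 27 alternatives, DESeq2 among them (adjusted p = 0.20). Colec12 had 118, 134 and 139 CPM in Adult, 95.8 and 85.8 in Aged, 84.0 and 97.0 in EAE, and 146, 170, 199 and 215 in Juvenile. None of its differences passed (0.39, -0.46 and -0.33 in Juvenile, Aged and EAE, edgeR adjusted p = 0.21, 0.29 and 0.25), and 1 of 27 alternatives gained a call in Aged. Neither Juvenile, Aged nor EAE libraries overlapped the Adult ones, but with 2 units a group this alone gives no p below 0.333 in an exact permutation test.

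Single cells were compared after each PVM was thinned to 1500 UMIs, which left 1794 of 1897 PVMs. Cd209a was found in 58.7% ± 4.94 of Aged PVMs (SD, n = 2 units), in 11.2% ± 0.68 of Adult, in 7.12% ± 0.69 of EAE and in 0 of 552 Juvenile PVMs, which allows up to 0.543% of cells with a UMI at this depth and sets no limit on cells that express the gene. Without thinning the shares were 62.9%, 15.4% and 12.3%, and 1 of 553 Juvenile PVMs had a UMI. In endothelial cells, taken as a background, the thinned share was 0.936% in Aged, 0.441% in Adult, 0.0157% in EAE and 0 of 3093 cells in Juvenile. In astrocytes it was 1.03%, 0.575%, 0 of 61 cells and 0.0938% in the same order, from 4 of 1216 cells in all. These cells had median depths of 2256 to 8324 and 1862 to 3435 UMIs per library beside 2602 to 4531 in PVMs. The Adult, Aged and EAE shares of PVMs thus lay above those of endothelial cells and astrocytes, and the Juvenile share did not. The part of free RNA in these shares was not tested. These intervals and limits cover counting error only.

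In Aged PVMs each of the other Cd209 genes was also found in a larger share of cells than in Adult. Cd209b was found in 36.6% of Aged, 6.62% of Adult, 9.67% of EAE and 1.81% of Juvenile PVMs. Cd209d was found in 18.5% of Aged, 6.62% of EAE, 0.31% of Adult and 0.54% of Juvenile PVMs, the last 2 being 2 of 497 and 3 of 552 cells. Cd209f was found in 62.7% of Aged, 35.0% of Adult, 23.7% of EAE and 29.3% of Juvenile PVMs, and Cd209g in 44.1%, 17.9%, 11.96% and 9.78%. Over these 4 genes the share of endothelial cells in a group was at most 1.45% in Aged, 0.669% in Adult, 0.144% in EAE and 0.0245% in Juvenile, each for Cd209f. Mrc1 was found in most PVMs of every group (95.7% of Juvenile, 87.8% of Adult, 78.6% of Aged and 78.6% of EAE), as was Stab1 (81.3%, 71.0%, 76.7% and 63.9%). Lyve1 was found in 64.5% of Juvenile, 34.5% of Adult, 28.7% of Aged and 43.2% of EAE PVMs, and Cd163 in 38.9%, 34.6%, 42.9% and 58.5%. With 2 units a group an exact permutation test cannot go below p = 0.333, so no test was run on shares.

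Aged PVMs carried several Cd209 genes at once more often than PVMs of the other groups. At least 1 of the 5 was found in 78.3% and 72.1% of the PVMs of Aged 1 and 2, beside 35.7%, 47.2% and 40.7% in Adult, 30.5% and 30.6% in EAE, and 25.7% to 36.2% in Juvenile. At least 2 were found in 63.3% and 59.9% of Aged PVMs and in 7.09% to 25.2% of the PVMs of the other libraries. At least 3 of the 5 were found in 49.4% and 47.7% of Aged PVMs, in 5.85% to 7.78% of Adult, in 9.14% and 6.12% of EAE and in 0% to 1.48% of Juvenile PVMs. The groups did not overlap in this share except that EAE 2 lay among the Adult libraries. Of the 10 receptors a median of 5 was found per Aged PVM, 3 per Adult or EAE PVM and 3 or 4 per Juvenile PVM.

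Pairs of Cd209 genes were found in the same cell more often than the product of their shares in a library gives. Cd209f and Cd209g were both found in 148 Aged PVMs where 97.2 would be given by independence (1.52 times), in 75 Adult PVMs (30.7, 2.44 times), in 36 EAE PVMs (11.3, 3.20 times) and in 49 Juvenile PVMs (16.1, 3.04 times), and the ratio was above 1 in all 11 libraries. Put the other way, Cd209f was found in 148 of 155 Aged, 75 of 86 Adult, 36 of 47 EAE and 49 of 54 Juvenile PVMs that had Cd209g. In Aged, 61 of the 65 PVMs with Cd209d also had Cd209a, 1.6 times the product of shares. Where shares are high, as in Aged, a ratio has less room above 1.

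Over pairs with at least 5 expected cells, the ratio for 2 Cd209 genes was 2.21 to 2.85 in Adult (5 pairs), 1.18 to 1.71 in Aged (10 pairs), 2.40 to 3.32 in EAE (4 pairs) and 3.04 in Juvenile (1 pair). For 2 of the other 5 receptors the median was 1.06, 1.10, 1.14 and 1.02 in the same order, over 10 pairs each, with a highest ratio of 1.21, 2.17, 1.40 and 1.15. In Aged the pair of Lyve1 and Colec12, at 2.17, thus lay above every pair of Cd209 genes. For a Cd209 gene with one of the others the median was 1.09, 1.12, 1.22 and 1.02, and the highest ratio 1.865, 1.62, 2.02 and 1.22. Mrc1 and Stab1, both found in most PVMs, gave ratios of 1.01 to 1.05. Cells of equal UMI number can still differ in how much of their RNA is that of a PVM, and the part of this in the ratios was not tested.

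**Figure D4:**
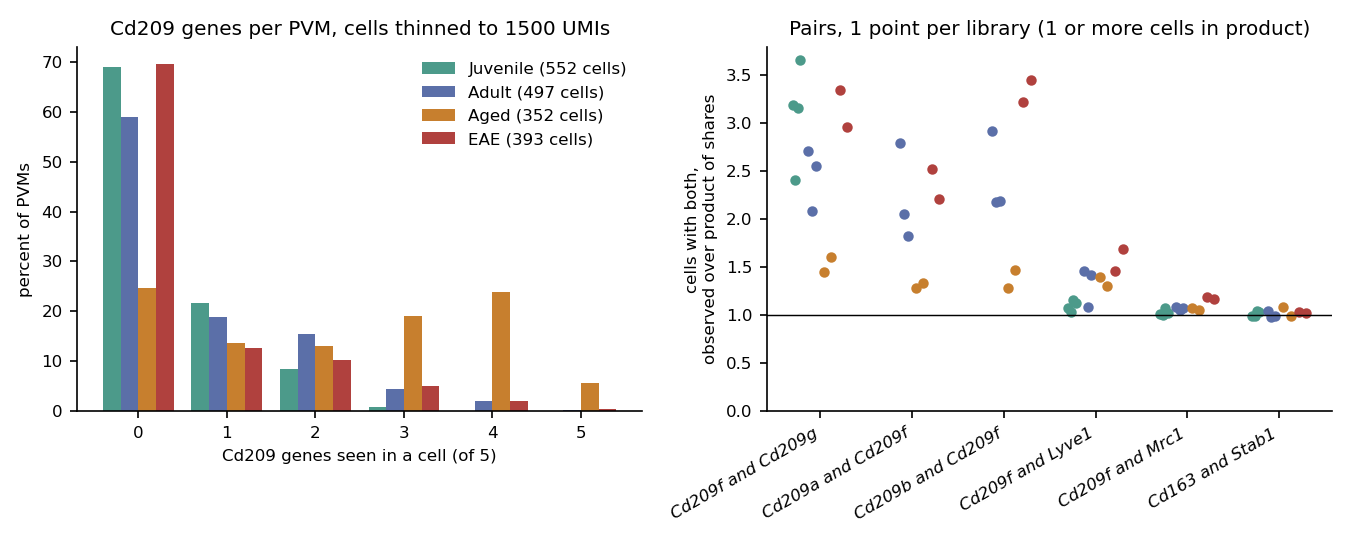
Left, percent of the PVMs of each group (thinned to 1500 UMIs) by the number of Cd209 genes found; right, cells with both genes over the product of shares for 6 pairs, with 1 point per library in the group colours of the left panel and a line at 1, for libraries where the product gives 1 or more cells. Aged PVMs with 3 or more Cd209 genes make up 47.7% to 49.4% of cells per library. The pairs of Cd209 genes that are drawn lie above the 3 other pairs within each group except where Aged values of Cd209f with Lyve1 reach the same range. In Juvenile the only such pair drawn is Cd209f with Cd209g.

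The study set Lyve1-positive PVMs against PVMs high in MHC class II. The receptors were therefore also described along the share of a cell's UMIs in MHC class II genes. These were H2-Aa, H2-Ab1 and H2-Eb1, whose products present peptides, and Cd74, the gene of the invariant chain. The median share was 3.45% and 3.22% in EAE 1 and 2 and at most 0.0437% in every other library, and it was 0 in Juvenile, where no division could be made. In the other 7 libraries PVMs were divided at the library's own median. Lyve1, Cd209b, Mrc1 and Stab1 were lower in the MHC class II-high PVMs in 7 of 7 libraries. In EAE 1 the 5 Cd209 genes differed more than any other receptor, and in EAE 2 Cd209a and Cd209d did, while Colec12, at -1.87, lay beyond Cd209b, Cd209f and Cd209g. The log2 difference between high and low PVMs in EAE 1 and 2 was -2.44 and -2.81 for Cd209a, -3.70 and -1.65 for Cd209b, -3.48 and -1.89 for Cd209d, -2.58 and -1.67 for Cd209f, and -2.73 and -1.45 for Cd209g. For Lyve1 it was -2.003 and -1.64 and for Mrc1 -0.84 and -0.70. Over the 5 Adult and Aged libraries it ran from -0.41 to 0.77 for Cd209a, from -2.22 to -0.52 for Cd209b, from -0.81 to 0.09 for Cd209f and from -0.82 to 0.17 for Cd209g. For Cd209d it ran from -1.33 to 1.54 over the 4 of these libraries that gave a value, the Adult ones with at most 7 UMIs.

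In all 7 libraries the PVM naming markers were lower and the markers of infiltrating macrophages higher in the MHC class II-high PVMs as well. In EAE the PVM naming markers had summed levels of 6106 and 12507 CPM (high and low) in EAE 1 and 6855 and 11923 CPM in EAE 2. The markers of infiltrating macrophages had 404 and 241 CPM in EAE 1, 311 and 293 CPM in EAE 2, and 170 and 64.6 CPM in Adult 1. In EAE the median depth was 4349 and 4125 UMIs in EAE 1 and 4337 and 4062 UMIs in EAE 2. In Adult 1 to 3 the median depth (high and low) was 4357 and 4853, 3499 and 3309, and 3528.5 and 3169 UMIs. In Aged 1 and 2 it was 2599 and 2631, and 3046 and 3196 UMIs. The part of infiltrating cells in this difference was not tested, and no test was run because the study named some of these receptors from this contrast.

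**Figure D5:**
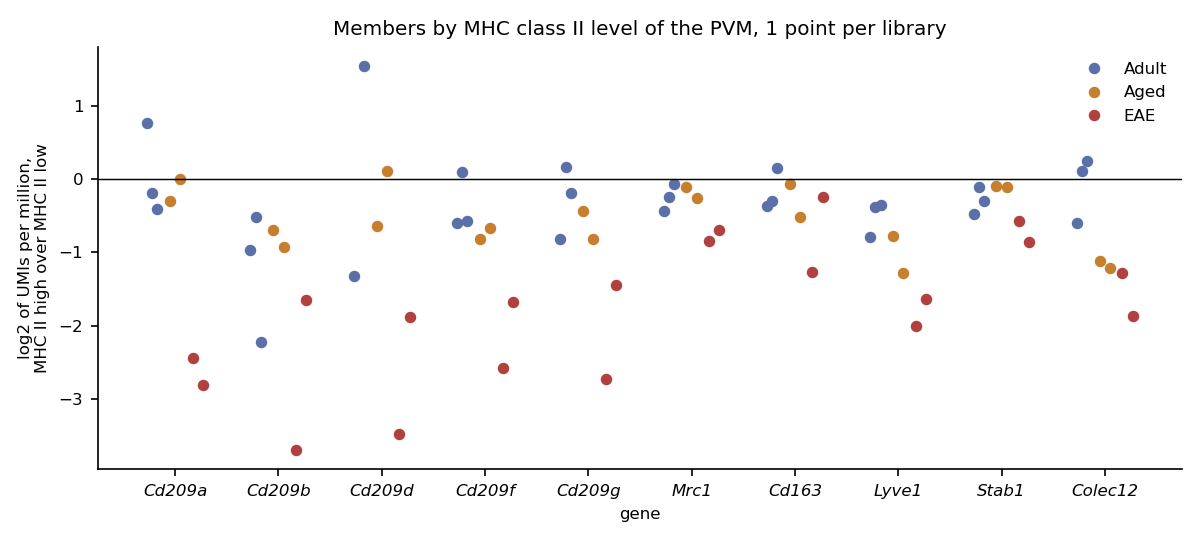
Log2 difference in level between PVMs at or above and below their library's median share of MHC class II UMIs, with 1 point per library (Adult, Aged and EAE) for each of the 10 genes. The median was 3.45% and 3.22% in EAE 1 and 2 and at most 0.0437% in Adult and Aged, near the limit of detection. Both EAE libraries lie below the others for 8 of the 10 genes, all but Cd209b and Cd163, and Lyve1, Cd209b, Mrc1 and Stab1 are below 0 in 7 of 7 libraries.

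In other myeloid cells the receptors were low or at 0, with a few exceptions. Microglia, the 8636 resident macrophages of the brain tissue, held Stab1 at 124 to 157 CPM in every library. Mrc1 in microglia was 194, 190, 105 and 120 CPM in Juvenile, 53.1, 18.4 and 18.5 in Adult, 10.3 and 7.73 in Aged, and 2.81 and 3.69 in EAE. The Juvenile libraries lay above all others and the EAE libraries below all others. Lyve1 in microglia was 13.7, 16.6, 14.9 and 6.91 CPM in Juvenile and at most 1.67 CPM elsewhere.

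Of the 7 receptors that passed the filter in microglia, Lyve1 passed through Juvenile alone, where it is high, and is described by its levels. Of the other 6, 2 were called in Juvenile, where 18.9% of the 11480 genes tested were called, 2 in EAE, where 21.4% were, and 0 in Aged by edgeR, where 0.915% were. The Juvenile log2 difference was 2.03 for Mrc1 (edgeR adjusted p = 0.020), and Cd209a, at 0 UMIs in the microglia of all 4 Juvenile libraries and at most 8.32 CPM in any library, was called lower (edgeR adjusted p = 0.0029). The EAE log2 differences were -3.23 for Mrc1 (edgeR adjusted p = 0.013) and -3.03 for Cd209a (edgeR adjusted p = 0.029). Of 22 alternatives 4 lost the call of Mrc1 and 9 that of Cd209a in EAE, those without EAE 1 (edgeR adjusted p = 0.069 and 0.21), without EAE 2 (0.064 and 0.16) and without Adult 1 (0.052 and 0.083) and with pairs as units (0.066 and 0.18) among them. In Juvenile the call of Mrc1 was lost with pairs as units (edgeR adjusted p = 0.054). In Aged 1 of the 7, Mrc1 (log2 -1.96), had an unadjusted p under 0.05 by edgeR but was not called (edgeR adjusted p = 0.23). DESeq2 did call it, as 1 of the 5 to which it gave an adjusted p (adjusted p = 0.0045). Stab1 in EAE was -0.41 in PVMs, and in microglia it did not pass (log2 0.16, edgeR adjusted p = 0.41), with a mean of 142 CPM in EAE and 147 CPM in Adult before TMM scaling. In endothelial cells Cd209a had 2.36 CPM in Adult, 7.20 in Aged, 0.181 in EAE and 0.112 in Juvenile, beside 3.46, 7.79, 0.334 and 0 CPM in microglia. Mrc1 in EAE had 3.58 CPM in endothelial cells and 3.25 CPM in microglia, and in Adult 15.2 and 35.8 CPM. The part of RNA from PVMs in these levels was not tested.

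The Ccl17-led cluster of 378 cells carried Cd209a with little of most other receptors. Its Cd209a level was 1304 and 1123 CPM in Adult 2 and 3, 2249 and 2175 CPM in Aged 1 and 2, 704 CPM in Juvenile 3, and 111 and 88.2 CPM in EAE 1 and 2. By CPM the Aged libraries were again highest and EAE lowest, and Juvenile 3 had 704 CPM here although its PVMs had 0. These levels rest on 19 and 25 cells in Adult 2 and 3, 14 and 16 in Aged, 18 in Juvenile 3 and 141 and 116 in EAE. Cd209d reached 239 CPM in this cluster in Juvenile 3, whereas Cd209g was at 0 in all 7 libraries with at least 10 of these cells and Lyve1 had 1 UMI in all. Mrc1 there was 10.3 to 126 CPM. In thinned cells Cd209a was found in 7.80% to 83.3% of this cluster per library. At least 1 Cd209 gene was found in 68.4% and 83.3% of these cells in Adult 2 and 3 and in 78.6% and 81.3% in Aged 1 and 2, so Aged was not highest by this share.

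A cluster of 311 cells led by Cxcl13, with markers both of PVMs and of microglia, was left unnamed too. It held Mrc1 at 115 to 282 CPM and Stab1 at 65.3 to 258 CPM. Cd163 was 0 to 65.7 CPM and Lyve1 at most 4.38 CPM. Cd209a in this cluster was 124 and 48.6 CPM in Aged 1 and 2, 0, 42.6 and 0 CPM in Adult 1 to 3 and 0 in both EAE libraries. Infiltrating macrophage-like cells, 1594 in all and mostly from EAE, held Mrc1 at 0 to 45.2 CPM and Stab1 at 0 to 68.8 CPM, and Cd209a gave 12 UMIs in the 6 libraries with at least 10 such cells, 11 of them (195 CPM) in the 16 cells of Juvenile 3. After thinning, 1 of 1540 of these cells had a UMI of Cd209a, and it came from Juvenile 3 (6.25% of its cells). Of the 80 dendritic-like cells of EAE, 8 of the 10 receptors were at 0, and Cd163 and Stab1 gave 2 and 6 UMIs.

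Of 21 other scavenger and endocytic receptors 12 could be tested in PVMs. In EAE 6 rose and 1 fell, where 10.2% of all genes tested were called higher and 7.69% lower. In Aged 3 rose and 1 fell, where 0.732% and 0.779% were, and in Juvenile 2 were higher and 2 lower than in Adult, where 2.1% and 3.84% were, with medians of log2 0.51, 0.31 and -0.26. Cd36, which takes up oxidized lipids, fell from 255 ± 24.0 to 83.9 ± 21.1 normalized CPM in Aged (SD, n = 2 units; log2 -1.599, edgeR adjusted p = 0.00064) and was higher in Juvenile (461 ± 98.8 normalized CPM, log2 0.85, edgeR adjusted p = 0.0086). In EAE it fell as well (log2 -1.61, edgeR adjusted p = 2.6e-05). Axl, a receptor for dying cells, rose in Aged by 1.67 (edgeR adjusted p = 0.041) and in EAE by 1.65 (edgeR adjusted p = 0.0054), and Cd93 rose in Aged by 1.17 (edgeR adjusted p = 0.0075). Cxcl16, a scavenger receptor for oxidized lipoprotein and a chemokine, was lower in Juvenile, by log2 -1.43 (edgeR adjusted p = 0.017), and rose in EAE by 1.56 (edgeR adjusted p = 0.0014).

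Of 24 other C-type lectins 14 could be tested. Of 9 called higher in EAE, Cd209e, Clec4b1 and Clec4d passed the filter on low counts through the groups where they are high alone, which leaves 6 of 11 that rose, where 10.2% of all genes did, and 1 fell, where 7.69% did. In Aged 1 rose, where 0.732% of all genes did, and in Juvenile 3 were lower, where 3.84% were. Clec10a, called higher in EAE and lower in Juvenile, is 1 of these 11 and also a PVM naming marker. The medians of these 11 were log2 0.47, 0.35 and -0.35 in EAE, Aged and Juvenile. Mgl2, a galactose-type lectin, rose in Aged from 476 ± 73.0 to 872 ± 2.58 normalized CPM (SD, n = 2 units; log2 0.87, edgeR adjusted p = 0.0045) and was lower in Juvenile (log2 -0.72, edgeR adjusted p = 0.0074). Clec4b1 had a mean of 3.87 normalized CPM in Adult and 21.8 in EAE, and Clec4d 7.04 and 30.1. Clec12a, an inhibitory lectin, was lower in Juvenile by log2 -1.29 (edgeR adjusted p = 0.00055). Of 10 MHC class II genes 7 could be tested. The MHC class II regulator Ciita passed the filter through EAE alone and is described by its mean, 1.01 normalized CPM in Adult and 23.6 in EAE. Of the other 6, 3 rose in EAE, 1 rose in Aged and 1 was lower in Juvenile, beside 10.2%, 0.732% and 3.84% of all genes. The log2 differences of these 6 ran from 2.44 to 3.95 in EAE, from 1.31 to 1.87 in Aged and from -9.75 to -1.69 in Juvenile. The invariant chain Cd74 rose in EAE by 3.53 (edgeR adjusted p = 0.047) and H2-DMa by 3.31 (edgeR adjusted p = 0.0071). H2-DMb1, a chaperone of peptide loading, was the one called in Aged (log2 1.31, edgeR adjusted p = 0.0030) and in Juvenile (log2 -1.69, edgeR adjusted p = 0.00058). The 12 PVM naming markers decided which clusters were named PVMs, so they are described without a test. Their median log2 difference from Adult was 0.20 in Aged, 0.17 in EAE and 0.15 in Juvenile. In EAE the falls were largest for the chemokine gene Ccl24 (log2 -2.56), Igfbp4 (-1.31) and the endocytic adaptor Dab2 (-1.26). Among the naming markers Folr2, a folate receptor of resident macrophages, was higher in Aged by 0.96.

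Across the 18 cell classes, the genes whose level over classes was most like each receptor (Pearson r of log2(CPM + 1), 14205 genes) were often other receptors of the set. The nearest was Cd209d for Cd209a (r = 0.887), Cd209f for Cd209b (0.883), Cd209a for Cd209d (0.887), Lyve1 for Cd209f (0.917) and Lbx1 for Cd209g (0.930), with Cd209f second (0.887). For Mrc1 it was the chemokine gene Ccl2 (0.940), for Cd163 the phospholipase gene Pla2g2d (0.910), for Lyve1 Cd209f (0.917), for Stab1 the chemokine gene Ccl12 (0.909) and for Colec12 Adamtsl5 (0.924). The points share libraries and depth, and the receptors were chosen for this pattern.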

How the data were processed

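The authors deposited UMI counts per gene and cell for each of 11 10x libraries; the submitters' processing notes name bcl2fastq 2.19.1.403, UMI-tools 0.5.3, STAR 2.5.3a, featureCounts 1.6.1 (Subread) and mm10. Cells with 500 to 6000 genes and at most 25% mitochondrial UMIs were kept (50625 of 54646 barcodes). They were clustered with Seurat 5.3.0 (R 4.3.3) and named from marker lists, without the 10 receptor genes; a cluster with markers of more than one class stayed unnamed. Scrublet (scanpy 1.11.5) called 818 doublets (1.62%), which were kept in the named clusters and left out in an alternative. At most 113 barcodes were shared by a pair of libraries.

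UMIs were summed per library and class. Near-identical libraries were summed to 1 unit, and 1 edgeR 4.0.16 quasi-likelihood fit (TMM, filterByExpr, all groups, Benjamini-Hochberg over all genes) was used for PVMs and 1 for microglia. Levels per library are CPM of these sums, and normalized CPM uses the TMM factors. On simulated counts with 200 genes changed by log2 1, 29.2%, 29.4% and 31.1% of them were recovered in PVMs for Juvenile, Aged and EAE, and 0%, 1.72% and 4.84% of the calls were false (8238, 8171 and 8235 genes). Alternatives used DESeq2 1.42.0, other units, size factors and filters, left out libraries and named PVMs in other ways, and 5 of them were added after seeing the data. Same-numbered libraries correlated by -0.13 to 0.10 over 2809 genes in their deviations from the group means. Libraries of unlike number were not compared, so this cannot settle whether replicate numbers pair libraries. The main fit used no pairing. The study tested single cells, whereas here libraries are the replicates.

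Named are all 10 members, for each the nearest of the 3 genes most alike across cell classes, and up to 3 called genes of largest change per list and comparison. The members and the gene lists were chosen with earlier results of these data known. Promoter windows are RefSeq entries, and motifs were chosen after seeing the windows. Intervals are exact 95% intervals and a 0 is limited by 3 counts.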

Additional observations from a re-analysis of the deposited data

Results flagged for a closer look

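Within groups of 4 libraries, 16 series of levels were checked for a library far from the others, of which chance gives about 1 in 20, and 1 was found. Stab1 in microglia of Juvenile 3, at 138 CPM, lay apart from the other Juvenile libraries, the lowest of which had 124 CPM. In EAE against Adult, Stab1 had opposite signs in PVMs (log2 -0.41) and in microglia (log2 0.16), each in both EAE units against both Adult units once normalized. The microglial difference did not pass (edgeR adjusted p = 0.41), and its sign turns in CPM before TMM scaling, where the means were 142 in EAE and 147 in Adult and the libraries overlapped, at 140 and 143 in EAE and 137 to 157 in Adult. The difference between both cell types was not tested.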

How the results depend on the processing

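Of 1272 values of single receptors under an alternative, 1138 kept direction and side of the threshold, 71 were lost, 30 were gained and 33 reversed. The counts of genes called are not among these and are given below. Of the levels, 165 of 240, and of the shares and pairs, 467 of 650, moved by less than 1 SD. The cause was not tested unless named. Genes called in PVMs (Juvenile, Aged and EAE, main 503, 128 and 1512) were 860 and 214 in the first 2 with 11 separate libraries, 760 and 298 with the replicate block, which pairs libraries only by number, 219 in Juvenile and 749 in EAE with DESeq2, 340 in Aged with no filter, 156, 27 and 590 with fewer cells under the endothelial limit, 238 in Aged and 231 in EAE in the main cluster, 247 in Aged without the choroid plexus cluster, 242 in Aged with the Cxcl13-led cluster, and 211, 15 and 642 with each Aged and EAE pair as 1 unit. Genes called in microglia (main 2172, 105 and 2455) were 339 in Aged with 11 separate libraries, 230 with only Adult 2 and 3 summed, 438 with the replicate block, 1361 in Juvenile and 192 in Aged with DESeq2, 610 in Aged with no filter, and 1020, 2 and 733 with pairs as units. Leaving out 1 library gave 22 (Aged 1) to 228 (Adult 1) calls in Aged PVMs, 715 (EAE 1) to 1537 in EAE PVMs, 1324 (Adult 1) to 2160 in Juvenile microglia, 9 (Aged 1) to 148 in Aged microglia and 1083 (EAE 2) to 2488 in EAE microglia. Leaving out Juvenile 1 and 2 gave 300 in Juvenile PVMs, 198 in Aged PVMs and 376 in Aged microglia, leaving out Juvenile 3 and 4 gave 368 in Aged microglia, and leaving out Adult 2 and 3 gave 280 in Aged PVMs and 228 in Aged microglia.

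None of the log2 differences that reversed was called in its main value, although some passed under other alternatives (Cd209b under 4 and Cd209g under 1 in EAE PVMs, Cd209f under 1 in Juvenile microglia). In PVMs they were, for Cd163 in Juvenile, -0.073 without Juvenile 1 and 2, -0.077 without Adult 2 and 3, -0.088 by marker score and -0.31 under the endothelial limit (-0.10 to 0.17 without 1 library), for Cd209f in Juvenile 0.080 without Adult 2 and 3 (-0.21 to 0.026 without 1 library), for Stab1 -0.038 by score in Juvenile and in Aged -0.00083 by score, -0.0067 under the endothelial limit and -0.17 with the Cxcl13-led cluster, for Lyve1 in Aged 0.060 under the endothelial limit, 0.12 in the main cluster and 0.10 without the choroid plexus cluster (-0.17 to 0.075 without 1 library), for Cd209b in EAE -0.53 in the main cluster, and for Cd209g in EAE -0.53 to 0.077 without 1 library. In microglia they were, for Cd163 in Juvenile, 0.018 with the replicate block and 0.26 without Juvenile 3 and 4 (-0.65 to 0.94 without 1 library), for Stab1 in Aged 0.030 with the block and 0.012 with no filter (-0.081 to 0.062 without 1 library), for Cd209f in Aged -0.21 without Adult 2 and 3, and without 1 library for Cd209f in Juvenile -1.95 to 0.89, for Colec12 in Juvenile -0.999 to 0.17, for Cd163 in EAE -1.04 to 0.54 and for Lyve1 in EAE -0.017 to 1.17. The fit on PVMs with under 3 UMIs of endothelial, microglial and macrophage markers together was not run, since 0 to 26 PVMs were left per library. Depth limits Cd209d in Adult and Cd209a in Juvenile PVMs, which rest on 12 and 1 UMIs.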
